A study of Homo sapiens with 12 samples.

Results

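Cancer-testis antigen genes are active in male germ cells, silent in most other tissues and switched on again in many tumours. The genes described here were 33 such genes listed by symbol, in 3 classes: 13 genes of the MAGE family, 13 other genes of the X chromosome and 7 autosomal genes. Of these, 32 matched 1 of the 57820 genes in the count tables, and 25 of the 32 lie on the X chromosome. SSX4 matched no identifier and is only named.

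In somatic cells these genes are known to be held silent by methylation of CpG sites in their promoters and by repressor complexes on chromatin, such as the E2F6, MGA and PCGF6 complex that also silences meiotic genes. Loss of that silencing, for example after treatment with a demethylating drug, is known to switch many of them on. In hepatocellular carcinoma, MAGE proteins are known tumour antigens, because an adult hepatocyte does not make them.

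All libraries were made from the hepatoma line PLC/PRF/5, of human origin. HKDC1, a gene for a hexokinase-like protein, was knocked out in lines called KO1 and KO2 and put back in both (KO1_RES and KO2_RES, called rescue). There were 12 RNA-seq libraries: 4 of control cells, numbered 1 to 4, and 2 of each of the other 4 groups, numbered 1 and 2. Neither the origin of the lines (clones or guides), the vector used for the controls and rescue, separate cultures nor the oxygen level is given in the labels, so p-values measure only the spread between these libraries, which may be technical. Group names are those of the sample titles. For 4 libraries (number 2 of each knockout and number 1 of each rescue) the genotype field gives the other group.

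Levels are given as CPM, the usual measure of read counts relative to library size, with library sizes scaled by the trimmed mean of M values (TMM). The total over genes was between 36075411 and 71853616 counts per library. HKDC1 itself stood between 124 and 183 CPM in the controls, at 153 and 146 CPM in KO1, at 91.3 and 49.2 CPM in KO2, and between 508 and 1544 CPM in the rescue libraries. It was lower than in controls in KO2 (log2 fold change -1.14 ± 0.25 (SE), adjusted p = 0.0161) and did not pass the test in KO1 (-0.05 ± 0.23, adjusted p = 0.920), so its RNA is no check on the KO1 label. All 4 libraries titled rescue were above all others, also the 2 whose genotype field says knockout. Of 11 hepatocyte and hepatoma genes examined, all but TTR were at 4.17 CPM or more in every library. TTR, a plasma transport protein, stood at 34.1 and 33.0 CPM in controls 1 and 2, at 2.74 CPM or less elsewhere, and at 0 CPM in KO1_RES number 2. The list had a summed level of 4285 to 34790 CPM, lowest in line 2 and highest in line 1. Of 10 genes of spermatocytes and spermatids, 7 had at most 3 counts in every library, and the list summed to 0.0391 to 0.425 CPM. The others were AKAP4, DDX4 and SYCP3, and no gene of the list was on in any library. Controls 1 and 2 stood apart from controls 3 and 4 across the transcriptome, so levels of the listed genes are given by control pair. Counts of called genes of the list, and fold changes of some, are also given with each pair alone. Calls of genes outside the list are given with all 4 controls only. The pairs were parted after their values were seen, and a fit with 1 pair leaves out the spread between pairs. Adjusted p-values of such fits therefore only describe. The labels name no cause for the split.

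A gene was called on in a library at 1 CPM or more and off at 3 counts or fewer, which corresponded to 0.0407 to 0.0848 CPM depending on the library. Levels between these limits were called low. The limits, and the intervals given below, take in counting error alone, since duplicates of 1 molecule could not be told from separate molecules. In a bulk library, fewer cells that transcribe a gene and less RNA per cell cannot be told apart.

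Of the 32 genes, 10 were on in all 12 libraries, 12 were on in some and 10 were on in none. The 10 that were on throughout were MAGEA3, MAGEA4, MAGEA6, MAGEA10, MAGEA12, MAGEC2, CT83, CTAG2, PRAME and TEX15. PRAME encodes a substrate receptor of a ubiquitin ligase, TEX15 a testis protein needed for meiosis and transposon silencing, and CT83 a small antigen also called KK-LC-1. Those never on were MAGEB1, MAGEC3, SSX2, CTAG1B, GAGE1, CTCFL (BORIS, the testis relative of CTCF), ACRBP (an acrosome protein), SYCP1 (a synaptonemal complex protein), LY6K and TDRD1 (a tudor protein of the piRNA pathway). MAGEB1 and CTAG1B were off in all 12 libraries. CTCFL, SYCP1 and LY6K never exceeded 0.140 CPM. By class, 6 of the 13 MAGE genes, 2 of the 12 other X-linked genes and 2 of the 7 autosomal genes were on in every library, while 2, 3 and 5 were on in none.

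The number of genes on in both libraries of a set differed between sets. It was 10 in controls 1 and 2, 13 in controls 3 and 4, 19 in KO1, 16 in KO1_RES, 18 in KO2 and 18 in KO2_RES. The number off in both libraries was 12, 7, 6, 7, 2 and 3 in the same order. PAGE2, PAGE5 and SSX1 were on in both libraries of at least 1 set and off in both libraries of another.

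**Figure D1:**
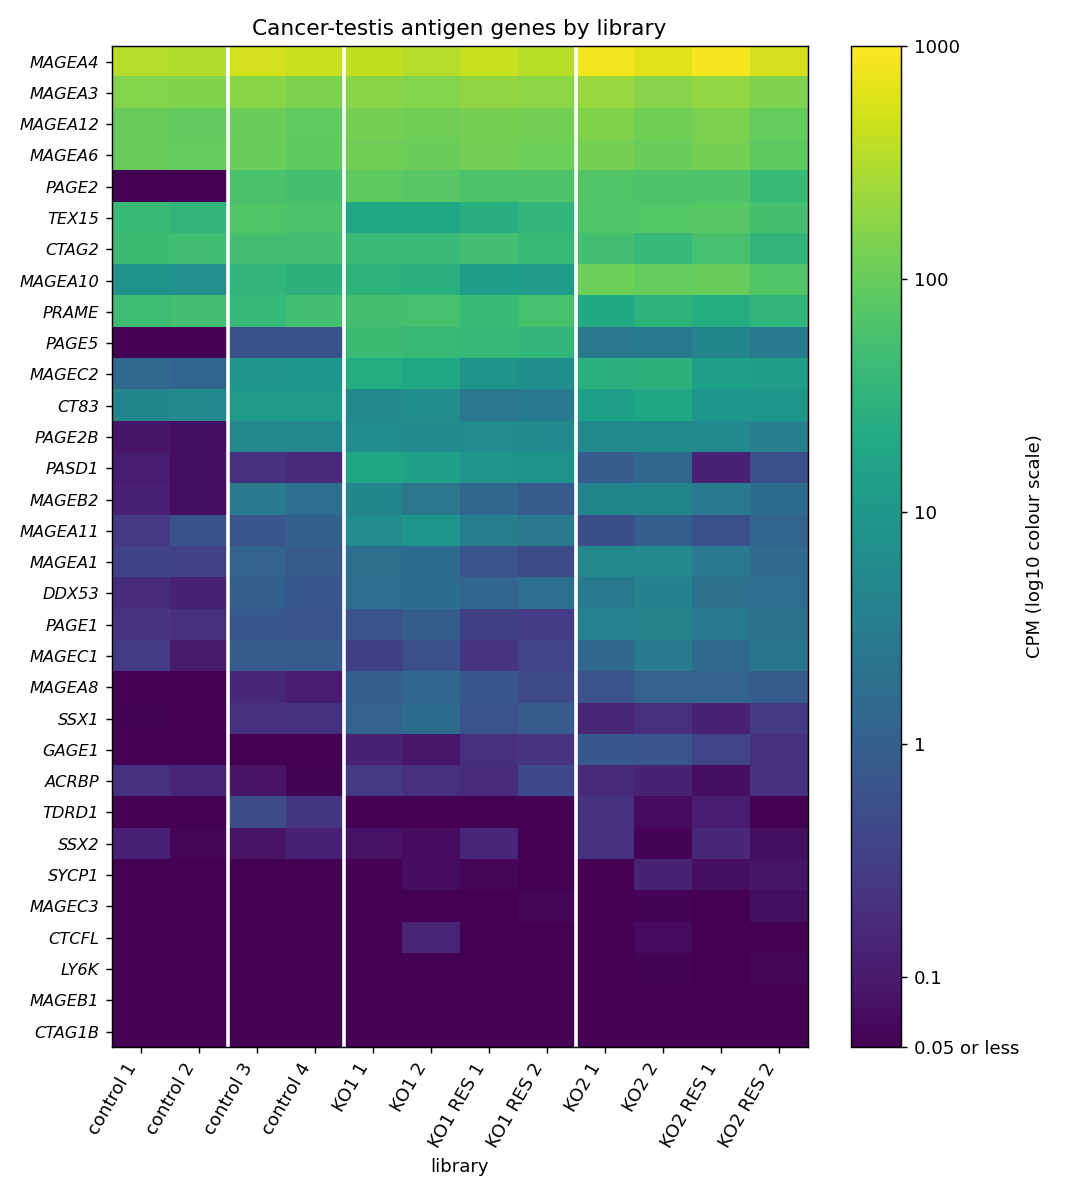
Level of each of the 32 matched genes (rows, ordered by mean level) in the 12 libraries (columns), as CPM on a log10 colour scale on which 0.05 CPM or less is darkest. White lines part controls 1 and 2, controls 3 and 4, line 1 and line 2. MAGEA4 is bright in every column, and PAGE2 is dark in controls 1 and 2 alone.

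The steadiest genes were the abundant MAGEA3, MAGEA6, MAGEA12 and CTAG2, the last of which encodes LAGE-1. MAGEA3 ranged from 140 to 213 CPM with a median of 169 CPM, MAGEA6 from 85.7 to 130 CPM, MAGEA12 from 88.0 to 154 CPM, and CTAG2 from 34.2 to 55.9 CPM with a median of 45.7 CPM. By edgeR these 4 genes passed the test in none of the 8 comparisons made over the 12 libraries. DESeq2 called MAGEA12 in KO2 and in the mean of both knockouts. Per kilobase of exon the highest mean levels were those of MAGEA4 (162 CPM per kb), MAGEA3 (95.9), PAGE2 (81.0), MAGEA12 (59.95) and MAGEA6 (58.1). Reads that fit several places were not counted and made up 7.21% to 11.58% of all reads. Values of genes with near-identical copies are therefore uncertain, which concerns MAGEA3 and MAGEA6, PAGE2 and PAGE2B, GAGE1, SSX2 and CTAG1B. The share of such reads was 11.58% and 10.42% in controls 1 and 2, and 7.30% and 7.99% in controls 3 and 4. It was 7.21% to 8.73% in the 8 knockout and rescue libraries. The part of this share in the differences between the control pairs was not tested.

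Control pairs differed by the highest ratios in PAGE2 and PAGE2B, of a family of small X-linked antigens. PAGE2 had 0 counts in controls 1 and 2 and 3375 and 3052 counts in controls 3 and 4. As levels, it stood at 0 CPM in controls 1 and 2, 57.2 and 54.1 CPM in controls 3 and 4, 84.6 and 75.5 CPM in KO1, 63.7 and 66.1 CPM in KO1_RES, 71.8 and 65.7 CPM in KO2, and 64.4 and 39.3 CPM in KO2_RES. Controls 3 and 4 thus lay with the knockout and rescue libraries, at least 1141-fold above controls 1 and 2 when the latter are set to 3 counts per library. PAGE2B, its close copy, stood at 0.0895 and 0.0730 CPM in controls 1 and 2, 4.96 and 4.95 CPM in controls 3 and 4, and 3.71 to 6.26 CPM in the 8 knockout and rescue libraries. Its mean in controls 3 and 4 was 61.0 times that in controls 1 and 2, and the pairs did not overlap.

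Only 8 of all 57820 genes (0.0138%) were off in controls 1 and 2 and on in the other 10 libraries, and 23 (0.0398%) were off in controls 1 and 2 and on in controls 3 and 4. PAGE2 was the 1 listed antigen gene among the 8. The others were NUDT16L2P, NAP1L5, ARSI, EBF1, RFPL4B, LINC02904 and PARVA, and PAGE2 had the highest level of the 8 in control 3, ahead of PARVA at 14.8 CPM. EBF1 encodes a B-cell transcription factor and PARVA an actin-binding protein of focal adhesions.

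Across the members, 20 of the 25 tested were higher in both controls 3 and 4 than in both controls 1 and 2, which held for 31.6% of all 20559 genes tested. ACRBP was the 1 member lower in both, which held for 30.1% of all genes. Genes with low counts enter the test through the libraries where they are high, so these counts are a description; of the 10 genes on in every library, 6 were higher in both. MAGEB2 was 23.6 times as high in controls 3 and 4 as in controls 1 and 2, MAGEC2 6.62 times, DDX53 (an X-linked RNA helicase, also called CAGE) 5.51 times, MAGEC1 4.37 times and MAGEA10 4.003 times. MAGEA3, MAGEA6, MAGEA12 and PRAME overlapped between the pairs. Because the pairs were parted after their values were seen, no test between the pairs is given. Among the cell type lists, the hepatocyte sum was 21600 to 22960 CPM in controls 1 and 2 and 12100 to 13380 CPM in controls 3 and 4. LYZ was the only blood gene of that list on in any library, and that sum was 333.7 to 338.1 CPM in the first pair and 910.5 to 922.1 CPM in the second. The part of either in the antigen levels was not tested.

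**Figure D2:**
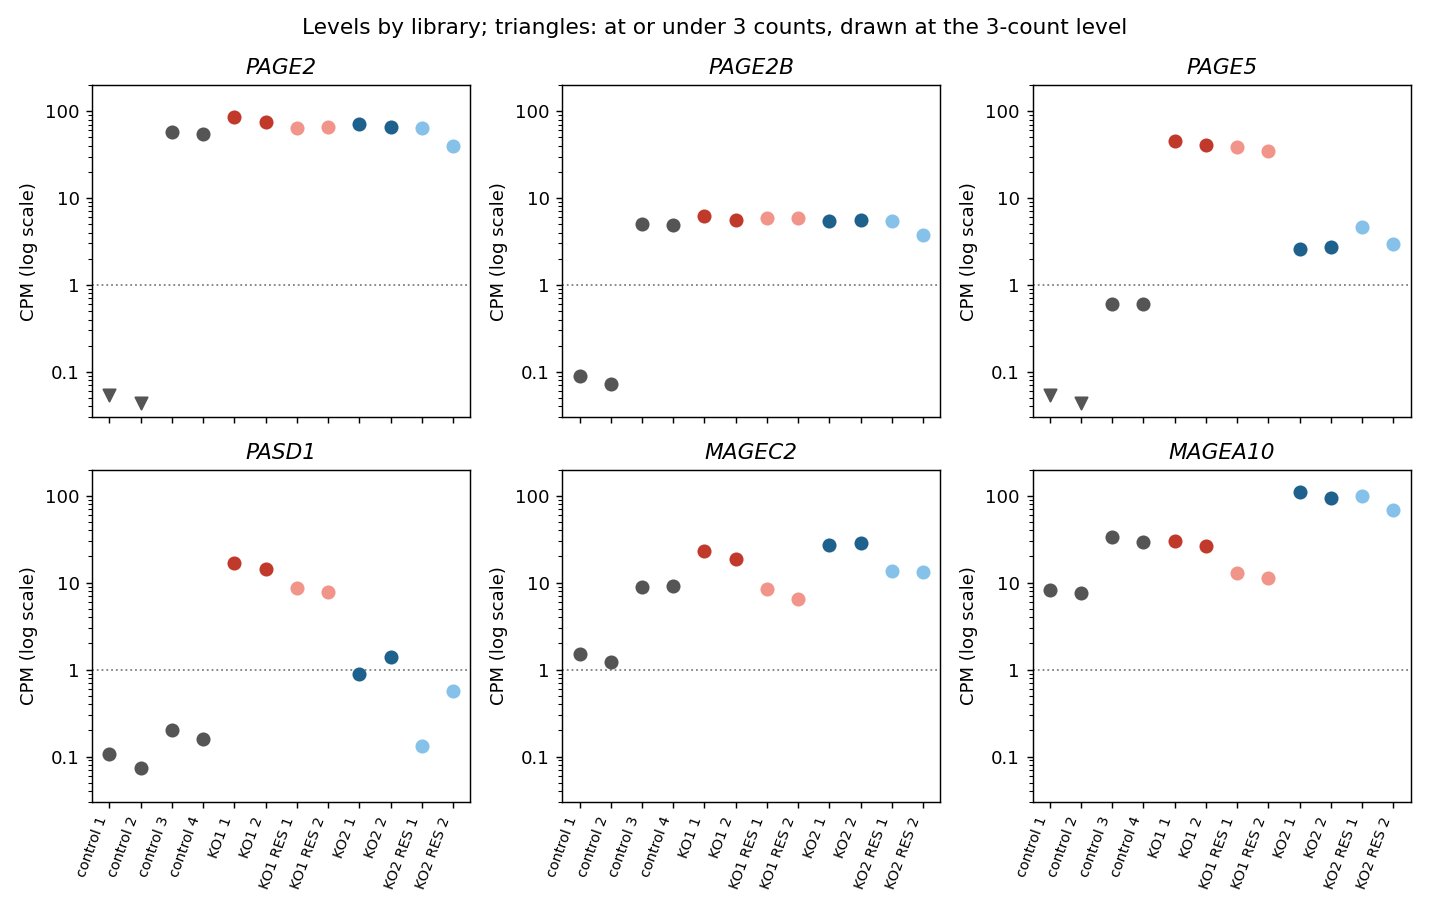
CPM of 6 genes (log axis) in each of the 12 libraries, grey for controls, red for line 1, blue for line 2 and pale colours for rescue. The dotted line marks 1 CPM and triangles mark libraries with at most 3 counts. PAGE2 and PAGE2B are lower in controls 1 and 2 than in the other 10 libraries, while PAGE5 and PASD1 are highest in the 4 libraries of line 1.

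The promoters of 6 members are shown to let a reader see the CpG sites that methylation can act on. PAGE2 and PAGE5 were on in some sets and off in another, PAGE2B and PASD1 were on in some and low in others, and MAGEC2 and CT83 were on in every library at differing levels. Each line holds the 250 bases before the RefSeq start site (build GRCh38.p14, not the build of the counts), 5′ to 3′ on the gene's strand, with CpG in capitals. PAGE5, MAGEC2 and CT83 are called members with high levels and 1 start site. PAGE2, PAGE2B and PASD1 were added after their values were seen.
PAGE2: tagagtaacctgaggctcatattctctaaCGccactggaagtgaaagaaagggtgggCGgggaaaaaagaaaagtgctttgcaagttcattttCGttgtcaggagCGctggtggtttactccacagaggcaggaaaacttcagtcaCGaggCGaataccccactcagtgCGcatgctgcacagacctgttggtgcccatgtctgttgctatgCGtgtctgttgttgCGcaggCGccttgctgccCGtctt
PAGE2B: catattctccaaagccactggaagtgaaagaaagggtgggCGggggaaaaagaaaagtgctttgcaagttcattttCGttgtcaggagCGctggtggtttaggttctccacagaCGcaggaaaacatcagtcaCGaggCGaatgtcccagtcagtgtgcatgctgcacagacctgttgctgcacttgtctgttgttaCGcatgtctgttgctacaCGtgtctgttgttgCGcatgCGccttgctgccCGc
PAGE5: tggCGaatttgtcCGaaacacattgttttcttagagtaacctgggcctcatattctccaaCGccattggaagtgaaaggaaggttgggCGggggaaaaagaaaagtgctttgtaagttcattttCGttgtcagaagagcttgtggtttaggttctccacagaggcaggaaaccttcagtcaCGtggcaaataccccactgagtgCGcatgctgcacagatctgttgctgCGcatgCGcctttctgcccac
PASD1: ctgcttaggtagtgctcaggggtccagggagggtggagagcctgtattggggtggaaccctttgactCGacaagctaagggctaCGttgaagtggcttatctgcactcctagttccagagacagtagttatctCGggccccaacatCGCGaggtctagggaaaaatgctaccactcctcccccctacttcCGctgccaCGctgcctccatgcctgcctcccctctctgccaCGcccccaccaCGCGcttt
MAGEC2: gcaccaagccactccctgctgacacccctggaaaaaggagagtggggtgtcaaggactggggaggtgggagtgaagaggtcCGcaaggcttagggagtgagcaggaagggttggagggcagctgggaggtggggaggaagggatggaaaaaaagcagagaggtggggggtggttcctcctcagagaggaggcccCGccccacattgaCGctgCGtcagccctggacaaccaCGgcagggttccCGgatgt
CT83: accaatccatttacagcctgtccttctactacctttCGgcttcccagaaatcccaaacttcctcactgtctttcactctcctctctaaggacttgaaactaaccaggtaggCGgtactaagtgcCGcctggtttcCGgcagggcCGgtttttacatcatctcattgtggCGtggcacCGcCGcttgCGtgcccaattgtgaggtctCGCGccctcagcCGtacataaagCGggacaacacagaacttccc
These windows are chrX:55088768-55089017 (plus strand) for PAGE2, chrX:55074780-55075029 (plus) for PAGE2B, chrX:55220096-55220345 (plus) for PAGE5, chrX:151563425-151563674 (plus) for PASD1, chrX:142205291-142205540 (minus) for MAGEC2 and chrX:116462977-116463226 (minus) for CT83.

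The 6 windows held 11 CpG in PAGE2, 11 in PAGE2B, 9 in PAGE5, 10 in PASD1, 6 in MAGEC2 and 13 in CT83. The median over all 35116 windows of this length was 11, with quartiles of 3 and 23, so all 6 lay between the quartiles. PAGE2 and PAGE2B were identical at 88.8% of 233 aligned bases, and PAGE2 and PAGE5 at 87.0% of 215. The starts of PAGE2 and PAGE2B lie 13988 bases apart. Across the libraries PAGE5 followed another pattern than PAGE2 and PAGE2B, with its highest levels in line 1.

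Searched on either strand, the E-box CACGTG occurred once each in the windows of PAGE2B and PAGE5 and in none of the other 4, against 6.34% of all windows. The E2F letters TCCCGC occurred once in the CT83 window (23.5% of all windows) and the ETS core CCGGAA once in the same window (14.5%). A match describes letters and no bound factor. Of the 33 genes, 26 had an entry. MAGEA1, MAGEA10, CTAG1B, CTAG2, ACRBP, TEX15 and LY6K are named only.

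The comparison of KO1 with the 4 controls asked which antigen genes differ after loss of HKDC1 in line 1. Of the 25 members tested, 7 were higher in KO1 (8.36% of all genes tested were) and 1 was lower (9.74%), at an adjusted p under 0.05. The 7 were PASD1, PAGE5, MAGEA11, MAGEA8, SSX1, GAGE1 and MAGEA1, and the 1 lower was TEX15. The median log2 fold change of the 25 was 0.88, beside -0.02 over all genes. PAGE5, GAGE1, SSX1, MAGEA8 and PASD1 had at most 36 counts in any control and were tested through the knockout and rescue libraries where they are high, so these counts and medians, here and in KO2, describe the members and support nothing further. In the comparison of KO2 with the same controls, 9 were higher (4.79% of all genes) and 1 was lower (5.24%). The 9 were GAGE1, MAGEA1, PAGE1, MAGEA8, PASD1, MAGEA10, DDX53, PAGE5 and MAGEC2, and the 1 lower was PRAME. The median was 1.14, beside 0.00 over all genes. Of 692 X-linked genes tested, 148 were higher and 24 lower in KO2, with a median of 0.33, while in KO1 75 were higher and 64 lower, with a median of -0.09. The part of this in the members' values was not tested. Both comparisons share their controls. PASD1, PAGE5, MAGEA8, GAGE1 and MAGEA1 were called higher in each. By class, 3 of 11 MAGE genes tested were higher in KO1 and 4 in KO2, and of 10 other X-linked genes 4 and 5. The calls among the 4 autosomal genes tested were both lower. PAGE2 and PAGE2B, split by control pair, did not pass with all 4 controls, with log2 fold changes of 1.53 (adjusted p = 0.548) and 1.23 (adjusted p = 0.498) in KO1.

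PASD1 encodes a nuclear protein with a PAS domain, known to inhibit the circadian CLOCK and BMAL1 pair. It stood at 0.107 and 0.0730 CPM in controls 1 and 2, 0.203 and 0.160 CPM in controls 3 and 4, 16.7 and 14.4 CPM in KO1, 8.69 and 7.89 CPM in KO1_RES, 0.901 and 1.40 CPM in KO2, and 0.131 and 0.572 CPM in KO2_RES. Line 1 was far above every other library, and KO2 was above the controls by less. The log2 fold change was 6.83 ± 0.48 in KO1 (adjusted p = 1.97e-05) and 3.08 ± 0.47 in KO2 (adjusted p = 0.00312). Either call was kept with either control pair alone and in every run that left out 1 library.

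PAGE5 had 0 counts in controls 1 and 2 and stood at 0.610 and 0.603 CPM in controls 3 and 4, 44.8 and 41.0 CPM in KO1, 38.5 and 34.7 CPM in KO1_RES, 2.59 and 2.73 CPM in KO2, and 4.65 and 2.96 CPM in KO2_RES. It was off in controls 1 and 2, low in controls 3 and 4 and on in every knockout and rescue library, with line 1 far above line 2. KO1 was at least 881-fold above controls 1 and 2 set to 3 counts per library. With controls 3 and 4 alone the log2 fold change was 6.15 (adjusted p = 2.60e-06) in KO1 and 2.13 (adjusted p = 0.000782) in KO2. With all 4 controls it was 7.16 ± 0.87 (adjusted p = 0.000504) in KO1 and 3.15 ± 0.84 (adjusted p = 0.0396) in KO2. The KO2 call was lost with DESeq2 (adjusted p = 0.178) and when any 1 library of KO1, KO1_RES or KO2 was left out, with an adjusted p of at most 0.156.

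MAGEA11 encodes a coregulator of the androgen receptor. It stood at 0.268 and 0.613 CPM in controls 1 and 2, 0.694 and 1.06 CPM in controls 3 and 4, 6.03 and 8.93 CPM in KO1, 3.15 and 2.6 CPM in KO1_RES, 0.533 and 0.95 CPM in KO2, and 0.562 and 1.28 CPM in KO2_RES. Line 1 lay above all other libraries, and line 2 overlapped the controls. The KO1 log2 fold change was 3.498 ± 0.46 (adjusted p = 0.000819) and that of KO2 was 0.18 ± 0.49 (adjusted p = 0.871).

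SSX1, a transcriptional corepressor known from synovial sarcoma fusions, had 3 and 1 counts in controls 1 and 2. It stood at 0.203 and 0.213 CPM in controls 3 and 4, 1.14 and 1.68 CPM in KO1, 0.626 and 0.848 CPM in KO1_RES, 0.147 and 0.190 CPM in KO2, and 0.131 and 0.264 CPM in KO2_RES. Only KO1 passed 1 CPM, and the log2 fold change there was 3.53 ± 0.62 (adjusted p = 0.00371).

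MAGEA8 stood at 0.0179 and 0.0438 CPM in controls 1 and 2, 0.152 and 0.106 CPM in controls 3 and 4, 0.960 and 1.26 CPM in KO1, 0.743 and 0.509 CPM in KO1_RES, 0.625 and 1.11 CPM in KO2, and 1.16 and 0.865 CPM in KO2_RES. All 8 knockout and rescue libraries lay above all 4 controls, and the lines overlapped. The log2 fold change was 3.76 ± 0.52 in KO1 (adjusted p = 0.00106) and 3.42 ± 0.52 in KO2 (adjusted p = 0.00306).

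GAGE1, of an X-linked family of near-identical copies, had 0 counts in controls 1 and 2 and 1 each in controls 3 and 4. It had 8 and 4 counts in KO1, 10 and 8 in KO1_RES, 41 and 51 in KO2, and 21 and 14 in KO2_RES, so all 8 lay above the controls and KO2 was highest. These sum to 2, 12, 18, 92 and 35 counts. Per read counted this was 86.1 times as high in KO2 as in the controls (exact 95% interval 23.2 to 722, counting error only) and 13.7 times in KO1 (3.04 to 126). It was called in KO1 (adjusted p = 0.0103) and KO2 (adjusted p = 0.000264), and the KO1 call was lost without KO1 number 1 (adjusted p = 0.104). GAGE1 remained under 1 CPM in every library.

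MAGEA1 was the founding member of the family, found as a melanoma antigen. It stood at 0.376 and 0.350 CPM in controls 1 and 2, 1.14 and 0.816 CPM in controls 3 and 4, 1.94 and 1.68 CPM in KO1, 0.626 and 0.509 CPM in KO1_RES, 5.07 and 5.35 CPM in KO2, and 2.94 and 1.60 CPM in KO2_RES. Both knockouts lay above all controls, and KO1_RES lay among them. The log2 fold change was 2.96 ± 0.43 in KO2 (adjusted p = 0.00229) and 1.44 ± 0.44 in KO1 (adjusted p = 0.0458). The KO1 call was lost with controls 3 and 4 alone (adjusted p = 0.107) and in 9 of 12 runs that left out 1 library, namely any of controls 1, 2 and 4, of KO1, of KO1_RES or of KO2, with an adjusted p of at most 0.225.

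MAGEC2, a partner of the TRIM28 ubiquitin ligase, stood at 1.5 and 1.23 CPM in controls 1 and 2, 8.88 and 9.18 CPM in controls 3 and 4, 23.2 and 18.9 CPM in KO1, 8.41 and 6.47 CPM in KO1_RES, 27.1 and 28.8 CPM in KO2, and 13.6 and 13.1 CPM in KO2_RES. Both knockouts were above every other library. Against all 4 controls the log2 fold change was 2.43 ± 0.66 in KO2 (adjusted p = 0.0420) and 2.02 ± 0.66 in KO1 (adjusted p = 0.0570). With controls 3 and 4 alone it was 1.63 in KO2 (adjusted p = 0.000458) and 1.23 in KO1 (adjusted p = 0.00139), and both were called. The fit with that pair leaves out the spread between the control pairs. The KO2 call on all 4 controls was lost when control 1 or any 1 knockout or rescue library was left out, with an adjusted p of at most 0.168.

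DDX53 stood at 0.179 and 0.131 CPM in controls 1 and 2, 0.982 and 0.727 CPM in controls 3 and 4, 1.82 and 1.63 CPM in KO1, 1.27 and 1.78 CPM in KO1_RES, 2.79 and 3.88 CPM in KO2, and 1.91 and 1.73 CPM in KO2_RES. It was on in all knockout and rescue libraries and in no control. The log2 fold change in KO2 was 2.73 ± 0.60 (adjusted p = 0.0174), a call lost without either KO2 library (adjusted p of at most 0.117).

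Taking the mean of both lines against control, 11 members were higher (6.75% of all genes) and 0 were lower (9.36%) by edgeR. At an unadjusted p under 0.05, 1 of the 25 was lower, and DESeq2 also called none lower. Against controls 1 and 2 alone 16 were higher (10.7% of all genes), and against controls 3 and 4 alone 10 were higher (5.26%) and 2 lower (8.29%), namely TEX15 (-0.80, adjusted p = 0.0109) and TDRD1 (adjusted p = 0.0446), which had 0 counts in KO1. When KO1 and KO2 libraries were fitted as 1 group, 7 members were called, all higher (2.87% of all genes). When the fit was limited to the 8 libraries with matching title and genotype, 0 were called, with adjusted p of 0.0772 to 0.326 for the 11 members. Of all genes, 0.19% were called higher in that fit. Its log2 fold changes were near those of the fit of all 12 libraries with both knockouts as 1 group. They were 6.01 for PASD1 (5.93 with 12 libraries), 6.30 for PAGE5 (6.24) and 5.37 for GAGE1 (5.32). MAGEA8 had 3.28 (3.60) and MAGEA11 2.31 (2.64). The fit of 8 libraries holds 1 library of each knockout and rescue line. Without KO1 number 1 the count was 7, and without KO2 number 2 it was 6. MAGEA10 lost its call in 10 of 12 such runs, SSX1 in 8, MAGEC2 in 4, DDX53 in 2 and MAGEA11 in 1, with adjusted p of at most 0.121. The KO1 count of 8 became 5 without KO1 number 1, and the KO2 count of 10 became 5 without KO2 number 1 and 6 without KO2 number 2.

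The number of members called depended on the control pair. Against controls 1 and 2 alone, 14 members were higher in KO1 (11.7% of all genes) and 17 in KO2 (9.54%). Against controls 3 and 4 alone, 8 were higher in KO1 (7.9%) and 9 in KO2 (4.7%), and all of these were also called against controls 1 and 2. PAGE2, PAGE2B and MAGEB2 were called in both lines against controls 1 and 2 and in neither against controls 3 and 4, where their log2 fold changes were 0.53, 0.26 and 0.61 in KO1 and 0.30, 0.16 and 0.88 in KO2. Against controls 1 and 2, 1 member was lower in KO1 (TEX15; 12.7% of all genes), and against controls 3 and 4, 3 were (9.67%). These were TEX15, CT83 (-0.82, adjusted p = 0.0144) and TDRD1 (-7.37, adjusted p = 0.0309), the last with 0 counts in KO1, so that its fitted value is no measure of size. Against controls 1 and 2, CT83 had 0.28 (adjusted p = 0.321), and TDRD1 was too low to be tested.

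The 2 lines were compared over their 4 libraries each, knockout and rescue together. Of 25 members, 8 were higher in line 2 (14.6% of all genes) and 5 were higher in line 1 (12.3%). Those higher in line 2 were TEX15, PAGE1, CT83, MAGEA10, MAGEA1, MAGEA4, MAGEC1 and GAGE1. Those higher in line 1 were PASD1, MAGEA11, PAGE5, PRAME and SSX1. Members were called in both directions, most of them on in libraries of both lines, and the median log2 difference was 0.17 beside 0.04 over all genes. Of 692 X-linked genes tested, 231 were higher and 73 lower in line 2, with a median of 0.38, while of the 21 X-linked members 7 were higher and 4 lower. The part of this chromosome-wide difference in the members' values was not tested.

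**Figure D3:**
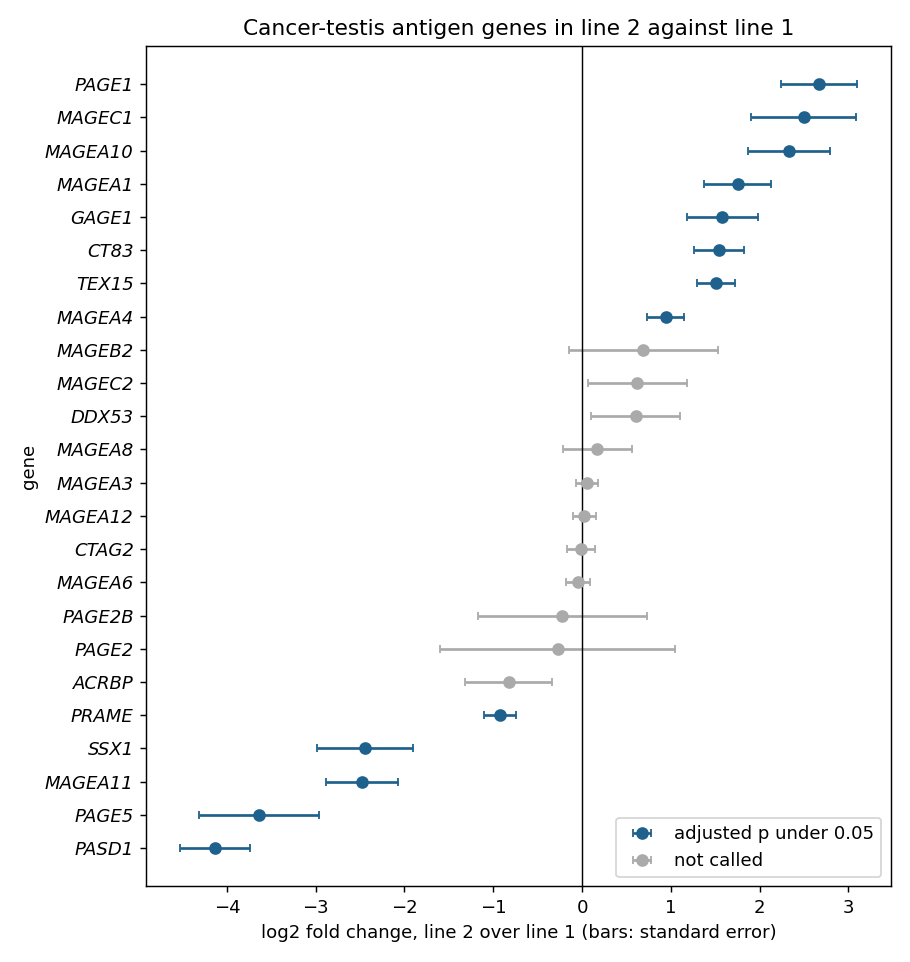
Log2 fold change of line 2 over line 1 (4 libraries each) for 24 tested genes, with standard errors; blue marks an adjusted p under 0.05. TDRD1, with 0 counts in 3 of 4 line 1 libraries, is left out. PASD1 is lowest at -4.14 and PAGE1 highest at 2.67.

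MAGEA10 stood at 8.14 and 7.52 CPM in controls 1 and 2, 33.6 and 29.1 CPM in controls 3 and 4, 30.4 and 26.4 CPM in KO1, 12.8 and 11.3 CPM in KO1_RES, 110.5 and 95.2 CPM in KO2, and 100.3 and 68.1 CPM in KO2_RES. All 4 libraries of line 2 lay above the other 8, and the line difference was 2.33 ± 0.46 on the log2 scale (adjusted p = 0.00386). Against control, KO2 was higher by 2.39 ± 0.51 (adjusted p = 0.0155), a call lost without either KO2 library (adjusted p of at most 0.104).

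PAGE1 stood at 0.233 and 0.190 CPM in controls 1 and 2, 0.779 and 0.674 CPM in controls 3 and 4, 0.656 and 0.932 CPM in KO1, 0.333 and 0.283 CPM in KO1_RES, 4.03 and 4.25 CPM in KO2, and 2.70 and 2.10 CPM in KO2_RES. It was on in line 2 alone, which was above line 1 by 2.67 ± 0.43 (adjusted p = 0.00121). KO2 was above control by 3.14 ± 0.47 (adjusted p = 0.00270). MAGEC1 was also on in line 2 alone, at 0.286 and 0.102 CPM in controls 1 and 2, 0.847 and 0.851 CPM in controls 3 and 4, 0.320 and 0.559 CPM in KO1, 0.235 and 0.396 CPM in KO1_RES, 1.42 and 3.14 CPM in KO2, and 1.54 and 2.24 CPM in KO2_RES. Its line difference was 2.50 ± 0.59 (adjusted p = 0.0103) and was lost without KO1 number 1 or KO1_RES number 1 (adjusted p of at most 0.0521).

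MAGEA4, the most abundant member, stood at 338 and 325 CPM in controls 1 and 2, 514 and 444 CPM in controls 3 and 4, 395 and 329 CPM in KO1, 429 and 340 CPM in KO1_RES, 836 and 642 CPM in KO2, and 887 and 506 CPM in KO2_RES. It was on everywhere and 0.94 ± 0.21 higher on the log2 scale in line 2 (adjusted p = 0.00756), though KO2_RES number 2 overlapped control 3. CT83 stood at 4.60 and 5.26 CPM in controls 1 and 2, 10.3 and 11.03 CPM in controls 3 and 4, 5.34 and 6.71 CPM in KO1, 2.54 and 2.91 CPM in KO1_RES, 14.0 and 16.6 CPM in KO2, and 8.94 and 9.31 CPM in KO2_RES. Line 2 was higher by 1.54 ± 0.28 (adjusted p = 0.00243) and did not overlap line 1.

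TEX15 stood at 41.6 and 34.1 CPM in controls 1 and 2, 68.3 and 60.9 CPM in controls 3 and 4, 19.2 and 19.3 CPM in KO1, 25.6 and 33.6 CPM in KO1_RES, 69.1 and 73.2 CPM in KO2, and 76.5 and 53.9 CPM in KO2_RES. Line 1 lay below every control, and line 2 reached the levels of controls 3 and 4. The KO1 log2 fold change was -1.41 ± 0.28 (adjusted p = 0.00638), lost without either KO1 library (adjusted p of at most 0.0664), and the line difference was 1.51 ± 0.22 (adjusted p = 0.000588). PRAME, also autosomal, went the other way: 46.7 and 51.5 CPM in controls 1 and 2, 38.1 and 52.4 CPM in controls 3 and 4, 53.1 and 55.4 CPM in KO1, 41.1 and 55.5 CPM in KO1_RES, 20.3 and 30.6 CPM in KO2, and 22.7 and 34.1 CPM in KO2_RES. Line 2 lay below all other libraries, with a line difference of -0.93 ± 0.18 (adjusted p = 0.00346). Its KO2 call against control (-0.89 ± 0.23, adjusted p = 0.0330) was lost with controls 3 and 4 alone (adjusted p = 0.0776) and without any 1 of controls 1, 2 and 4, KO1 libraries or KO2 number 1 (adjusted p of at most 0.309).

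The GAGE1 line difference of 1.58 ± 0.40 (adjusted p = 0.0148) rested on 12 and 18 counts in KO1 and KO1_RES beside 92 and 35 in KO2 and KO2_RES. It was lost without KO1 number 2 or KO1_RES number 1 (adjusted p of at most 0.0589). In PASD1, PAGE5, MAGEA11 and SSX1 line 1 exceeded line 2, with log2 differences of -4.14 ± 0.39, -3.64 ± 0.68, -2.48 ± 0.41 and -2.44 ± 0.54 for line 2 over line 1, and MAGEA1 was 1.76 ± 0.38 higher in line 2. PASD1, PAGE5, MAGEA11 and SSX1 did not overlap between the lines, while MAGEA1 and GAGE1 did.

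The rescue comparison asked which antigen genes differ once HKDC1 is put back, at RNA levels above those of the controls. By edgeR with 5 groups, 0 of 25 members were called in KO1_RES against KO1 (0.195% of all genes were, in either direction), in KO2_RES against KO2 (0.00486%), in the mean of both lines (0.00973%) and in the difference between the lines' rescue effects (0.0% of all genes). At an unadjusted p under 0.05 the members numbered 3, 3, 5 and 1, all lower in rescue in the first 3 comparisons. DESeq2 called 0, 0, 2 (PASD1 and MAGEA1) and 0. No member that was on in both libraries of a knockout was off in both libraries of its rescue. MAGEA1 and SSX1 were on in both KO1 libraries and low in both KO1_RES libraries.

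Rescue and knockout libraries of the same line and number deviated together, so they were also compared as pairs. This pairing thus rests on the same data, as the labels give a shared number and no shared culture. The paired fit held the 8 knockout and rescue libraries with a replicate block of line and number, and also left out the controls. With 4 pairs it has little left to measure the spread, so its small standard errors are themselves uncertain. It called 7 members lower in KO1_RES (2.63% of all 19766 genes tested), 1 lower in KO2_RES (0.0152%) and 7 lower in the mean of both lines (2.02%). The 7 of the mean were MAGEC2, MAGEA10, CT83, PASD1, MAGEB2, MAGEA1 and PAGE1. MAGEC2 fell in both lines, by 1.49 ± 0.12 (adjusted p = 0.000549) in line 1 and by 1.07 ± 0.12 (adjusted p = 0.0287) in line 2. In the mean of lines, MAGEA1 fell by 1.46 ± 0.21 (adjusted p = 0.00959), PASD1 by 1.32 ± 0.18 (adjusted p = 0.00825), MAGEB2 by 1.32 ± 0.19 (adjusted p = 0.00894), PAGE1 by 1.05 ± 0.21 (adjusted p = 0.0379), CT83 by 0.93 ± 0.11 (adjusted p = 0.00347) and MAGEA10 by 0.77 ± 0.08 (adjusted p = 0.00253).

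The values of single pairs come from the same libraries and pairing as that fit, and only describe it. The rescue library lay below the knockout library of its line and number in all 4 pairs for 8 members: MAGEA1, MAGEA10, MAGEB2, MAGEC2, PAGE1, PAGE2, PASD1 and CT83. Of all genes tested, 12.7% lay below in all 4 pairs and 10.8% above in all 4, and no member lay above in all 4. MAGEC2 in rescue was 0.362 and 0.342 of its knockout in line 1 and 0.5003 and 0.455 in line 2. MAGEB2, at 4.53 and 2.52 CPM in KO1, 1.35 and 0.820 CPM in KO1_RES, 4.34 and 4.32 CPM in KO2, and 3.02 and 1.64 CPM in KO2_RES, was at 0.298, 0.326, 0.696 and 0.380 of its knockout. In controls it stood at 0.1253 and 0.0730 CPM (1 and 2) and at 2.81 and 1.86 CPM (3 and 4), so KO1_RES lay between the control pairs.

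PAGE5, by contrast, was 0.860 and 0.846 of the knockout in line 1 and 1.79 and 1.09 in line 2, and PAGE2B 0.948, 1.05, 0.999 and 0.662. PAGE5 thus stood at 38.5 and 34.7 CPM in the rescue of line 1. CT83 fell in line 1 in the paired fit (by 1.13 ± 0.16, adjusted p = 0.00615). Its KO1_RES levels of 2.54 and 2.91 CPM lay below all 4 controls. By edgeR with all 4 controls, neither CT83 (-0.37, adjusted p = 0.494) nor MAGEA10 (0.54, adjusted p = 0.528) was called in KO1. With all 4 controls, their fall in line 1 thus did not follow a called rise. For MAGEA10 this depended on the control pair. By edgeR its log2 fold change in KO1 was 1.85 (adjusted p = 0.000171) against controls 1 and 2 alone. Against controls 3 and 4 alone it was -0.13 (adjusted p = 0.703). CT83 was called higher in KO1 against neither pair. MAGEA10 fell in line 1 (by 1.23 ± 0.12, adjusted p = 0.00105) and was not called in line 2 (-0.31 ± 0.11, adjusted p = 0.465), and the difference between the lines had an adjusted p of 0.0539.

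**Figure D4:**
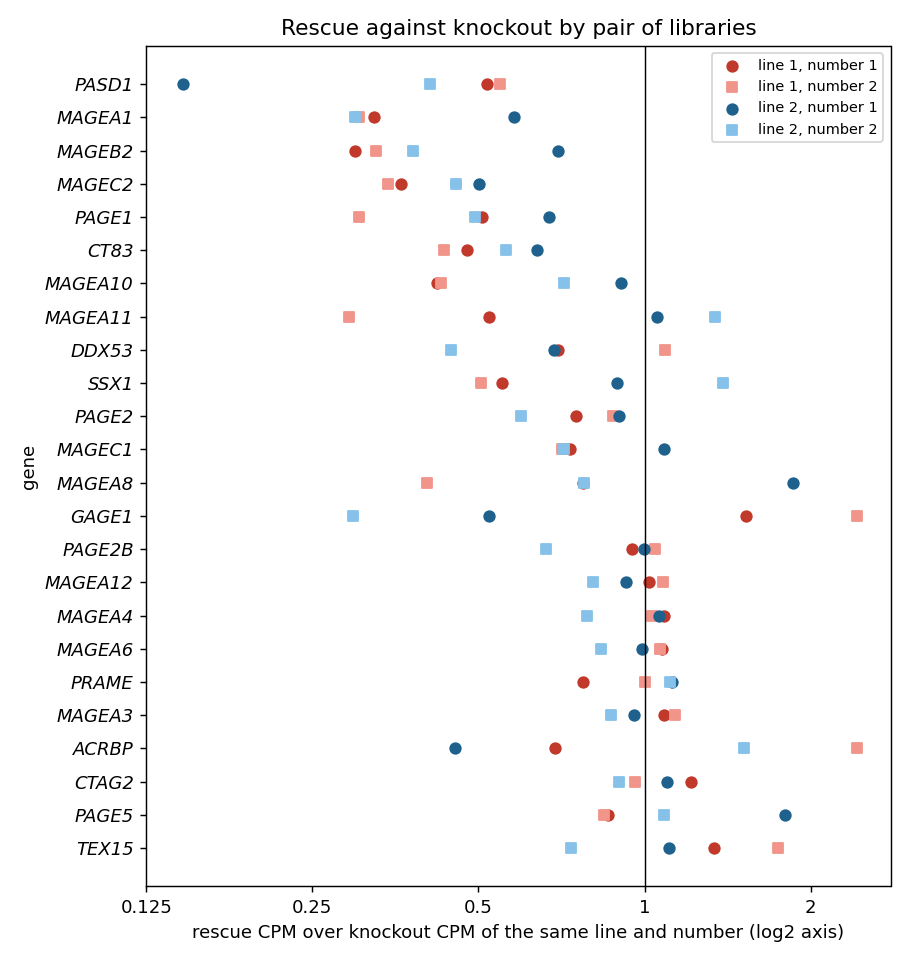
Rescue CPM divided by knockout CPM of the same line and number (log2 axis), 4 points for each of 24 tested genes, red for line 1 and blue for line 2. TDRD1 is left out because some knockout or rescue libraries had 0 counts. All 4 points lie left of 1 for the 8 genes MAGEA1, MAGEA10, MAGEB2, MAGEC2, PAGE1, PAGE2, PASD1 and CT83, and PAGE2B and MAGEA3 lie around 1.

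The other members that were never on gave few values. TDRD1 had 0.491 and 0.248 CPM in controls 3 and 4, at most 0.0358 CPM in controls 1 and 2, and 0 counts in both KO1 libraries. ACRBP ranged from 0.0532 to 0.452 CPM. SYCP1, MAGEC3 and MAGEB1 had 0 counts in all 4 controls and at most 0.136, 0.0733 and 0.0407 CPM elsewhere. MAGEB1, MAGEC3, SSX2, CTAG1B, SYCP1, LY6K and CTCFL were too low to be tested.

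Other X-linked cancer-testis genes were measured for 44 of 55 listed, and 11 passed the filter on low counts. Of these, 4 were higher in KO1 (CT55, MAGEA2B, MAGEB17 and LUZP4), as were 8.36% of all genes. In KO2, 4 were higher (LUZP4, SAGE1, MAGEB17 and FTHL17; 4.79% of all genes) and 1 was lower (CT55; 5.24%). The median log2 fold change was 0.70 in KO1 and 1.15 in KO2, beside -0.02 and 0.00 over all genes. FTHL17, with a mean of 0.0594 CPM in controls, and LUZP4 were tested through the libraries where they are high. These counts and medians are therefore a description. LUZP4, an mRNA export adaptor of germ cells, had a mean of 0.0670 ± 0.0583 CPM (SD, n = 4) in controls and stood at 0.656 and 0.699 CPM in KO1 and 1.03 and 3.04 CPM in KO2, with log2 fold changes of 3.30 ± 0.82 (adjusted p = 0.0198) and 4.89 ± 0.79 (adjusted p = 0.00411). CT55 went in opposite directions: 1.32 ± 0.13 CPM (SD, n = 4) in controls, 6.40 and 6.06 CPM in KO1, 2.19 and 1.95 CPM in KO1_RES, 0.478 and 0.448 CPM in KO2 and 0.281 and 0.367 CPM in KO2_RES. It was called in KO1 (2.24 ± 0.20), in KO2 (-1.50 ± 0.23) and in KO1_RES against KO1 (-1.59 ± 0.24, adjusted p = 0.0376).

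Of 8 broadly expressed MAGE genes tested, which lack testis restriction, 2 were higher and 1 lower in KO1, and 2 higher and 4 lower in KO2, with medians of 0.00 and -0.29. The shares over all genes were 8.36% and 9.74% in KO1 and 4.79% and 5.24% in KO2. MAGED1 was lower in both (-0.69 ± 0.20 and -1.21 ± 0.21). MAGEH1, at 11.1 ± 1.59 CPM (SD, n = 4) in controls, was higher in KO1 (37.7 CPM, log2 fold change 1.76 ± 0.20, adjusted p = 0.000337) and lower in KO2 (5.59 CPM, -0.99 ± 0.22, adjusted p = 0.0173).

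Of 31 autosomal germline and meiosis genes tested, 6 were higher and 8 lower in KO1, and 1 was higher and 1 lower in KO2. The medians were -0.11 and 0.14. Over all genes, 8.36% were higher and 9.74% lower in KO1, and 4.79% and 5.24% in KO2, so that the single calls in KO2 were no more than the background. MOV10L1, a helicase of the piRNA pathway, was higher in both (4.62 ± 0.80 and 3.28 ± 0.80), and TDRD12, of the same pathway, lower in both (-2.45 ± 0.24 and -2.36 ± 0.24). TDRD12 stood at 38.6 ± 10.2 CPM (SD, n = 4) in controls, 7.07 CPM in KO1 and 7.52 CPM in KO2. Its controls differed by pair, with 47.44 and 47.4 CPM in controls 1 and 2 and 31.15 and 28.46 CPM in controls 3 and 4. SYCE1, a synaptonemal complex protein, fell in KO1 (-4.04 ± 0.78, adjusted p = 0.00558).

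Factors of DNA methylation and germline gene silencing were mostly not called: 37 were tested, of which 1 was higher and 2 lower in KO1, and 1 higher and 2 lower in KO2, shares near or below those of all genes given above. MBD1, a methyl-CpG binding protein, was higher in KO1 (0.68 ± 0.11, adjusted p = 0.00212). MGA, of the same repressor complex as PCGF6, was higher in the mean of both knockouts (0.34 ± 0.10, adjusted p = 0.0473). PCGF6, a subunit of the repressor complex on germline promoters, was lower in both (-0.61 ± 0.14, adjusted p = 0.0118, and -0.72 ± 0.14, adjusted p = 0.00927), from 29.95 ± 2.32 CPM (SD, n = 4) in controls to 19.6 and 18.2 CPM. DNMT3A, a de novo DNA methyltransferase, was lower in KO1 (-0.68 ± 0.10, adjusted p = 0.00162) and was 0.95 ± 0.08 higher in line 2 than in line 1. DNMT3A stood at 25.3 and 25.6 CPM in KO1 and 49.2 and 50.6 CPM in KO2. In line 2 against line 1, 6 of the 37 were higher and 4 lower, near the shares of all genes (14.6% and 12.3%), among them ATRX (0.69 ± 0.09, higher) and EZH2 (-0.61 ± 0.12, lower). The part of these factors in the members' levels was not tested.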

How the data were processed

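RNA from PLC/PRF/5 cells was sequenced in 12 libraries with stranded mRNA kits, per the labels' protocols. The authors deposited raw read counts per gene, made with STAR 2.6.0b on GRCh37 per the submitters' processing notes. The reverse-strand counts were used (19.8 to 21.1 times the forward-strand counts). Reads mapping to several places, 7.21% to 11.58% of all reads, carry no gene and were left out. Symbols matched 39880 of the 57820 genes. The members and lists were chosen with earlier results of these data known.

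Counts were fitted with edgeR 4.0.16 in R 4.3.3 (quasi-likelihood test, TMM, filterByExpr, 5 groups, 12 libraries) and p-values adjusted by Benjamini-Hochberg over the 20559 genes tested. A call is an adjusted p under 0.05. The common biological coefficient of variation was 25.8%. Of the 32 members, 7 did not pass the filter on low counts. Alternatives were DESeq2 1.42.0, no filter, each control pair alone, fits with 3 groups, replicate blocks, other state limits and leaving out each library.

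Knockout and rescue libraries of the same line and number deviated together over genes (correlation 0.206 in line 1 and 0.431 in line 2), so they were also fitted as 4 pairs. With 2 libraries a group, number 1 and number 2 of a line give the same correlation. Same-numbered control and knockout libraries shared only a number (0.0202 and 0.14).

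Members called in any comparison are given by library, and other members by state and range. Of the other lists, up to 4 called genes per comparison are named.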

Additional observations from a re-analysis of the deposited data

Results flagged for a closer look

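The lines' knockout and rescue libraries differed in 13 members by the edgeR test of the difference itself, as log2 of line 2 over line 1 with 4 libraries each. Because both lines share their controls, this is also the difference between the lines' distances from control. The members higher in line 2 were PAGE1 at 2.67, MAGEC1 at 2.50, MAGEA10 at 2.33, MAGEA1 at 1.76, GAGE1 at 1.58, CT83 at 1.54, TEX15 at 1.51 and MAGEA4 at 0.94. Those higher in line 1 were PASD1 at -4.14, PAGE5 at -3.64, MAGEA11 at -2.48, SSX1 at -2.44 and PRAME at -0.93. The calls of MAGEC1 and GAGE1 were lost in 2 of 12 runs that left out 1 library. No cause was tested.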

How the results depend on the processing

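The 57 pairs of member and comparison followed here were the 42 called pairs and the rescue pairs that the paired fit called. Pairs against control called by an alternative alone, such as PAGE2 in KO1 with controls 1 and 2, were not among them. Of 1078 alternative values for the 57 pairs, 948 kept their direction and side of the threshold. A further 44 came to pass it, 86 no longer did, and none reversed. Of the 42 called pairs, 27 were called in every run that left out 1 library. Against controls 1 and 2 only, 15 members were called in KO1 (8 with all controls) and 18 in KO2 (10). With no filter on low counts the numbers were 16 in KO1, 18 in KO2 and 18 in the mean of both (11). In rescue they were 6 in KO1_RES, 2 in KO2_RES and 6 in the mean. Calls over all 38800 genes of that fit rose too, with 2104 higher and 2818 lower in KO1 and 1501 and 1884 in KO2. In KO1_RES they were 97 and 451, beside 8 and 32 with the filter. The 3-group fit called 7 in the mean of both knockouts, and 0 with the 8 libraries whose labels agree. DESeq2 called 2 in the rescue mean. Leaving out 1 library gave 5 to 10 calls in KO1, 5 to 12 in KO2 and 6 to 11 in their mean, and 11 to 13 between lines. It gave 0 in each rescue comparison.

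The fit with the replicate block of line and number held the 8 knockout and rescue libraries and no controls. It called 7 members in KO1_RES, 1 in KO2_RES and 7 in the rescue mean, where the 5-group fit of 12 libraries called 0. For MAGEC2 in KO1_RES the standard error was 0.12 in the paired fit and 0.81 in the 5-group fit. No fit left out the controls without the block, so the part of each in these calls was not tested. A replicate block of the number over all 12 libraries is no pairing for the controls. Only controls carry the numbers 3 and 4, so this block compares the knockouts with controls 1 and 2 alone. In KO1 its log2 fold change was 5.34 for SSX1 and 2.30 for MAGEA1, beside 5.33 and 2.30 with controls 1 and 2 only. The block called 15 members in KO1, 19 in KO2 and 19 in their mean. In rescue it called 6 in KO1_RES, 1 in KO2_RES, 7 in the mean and 1 in the difference of rescue effects. This block also called more of all 20559 genes, with 3630 higher and 3716 lower in KO1 (1719 and 2002 without it). In KO2 it called 3115 and 3020 (985 and 1077 without it). Other causes of these counts were not tested.

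The number of members on in 1 set and off in another was 3, became 5 with on set at 0.5 CPM and 7 with off set at 10 counts. At these depths, MAGEB1 and CTAG1B could not be told from 0 in any library. With 2 libraries a group and 4 conflicting genotype fields, small differences could not be resolved.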

Other observations

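Genes next to the switching antigens were looked up after the values were seen and their calls come from the same edgeR fit over all genes. In the stretch of the X chromosome that holds PAGE2, PAGE2B and PAGE5, APEX2, a DNA repair nuclease, stood at 30.2 to 39.6 CPM in every library. ALAS2, a heme synthesis enzyme of red cells, and PAGE3 never exceeded 0.0179 and 0.0800 CPM. MAGEH1 averaged 12.03 and 10.2 CPM in the control pairs, 37.7 CPM in KO1, 33.2 CPM in KO1_RES, 5.59 CPM in KO2 and 4.18 CPM in KO2_RES. FOXR2, a forkhead factor, averaged 0.0756 CPM in controls 1 and 2, 0.138 CPM in controls 3 and 4, 0.837 CPM in KO1 and 1.69 CPM in KO2, and was called higher in KO1 (adjusted p = 0.00783) and KO2 (adjusted p = 0.00269) by edgeR. RRAGB, further along, was at 10.4 to 21.7 CPM in every library. It was called higher in the mean of both knockouts (log2 fold change 0.51, adjusted p = 0.03855) and in neither line alone. Beside PASD1, VMA21 was at 153.9 to 285.9 CPM in every library, and beside MAGEC2, SLITRK4 was on in every library and averaged 18.0 CPM in KO1 and 63.9 CPM in KO2, beside 40.1 and 38.4 CPM in the control pairs. It was called lower in KO1 (adjusted p = 0.00160) and higher in KO2 (adjusted p = 0.0177).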
